A study of Mus musculus with 9 samples.

Results

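The cell cycle and DNA replication genes were followed in the L3/L4 dorsal root ganglia (DRGs) of adult mice, the ganglia that hold the cell bodies of sensory neurons projecting into the sciatic nerve. The set was a list of 40 genes, each taken by its name, an older symbol or its RefSeq identifier on the array. For each gene the brightest of its probes was used, and 39 of the 40 were measured well enough to be tested, among 20895 genes tested on the array. All 9 samples came from mice labelled cre.neg and jun.wt, that is, without Cre and with a wild-type Jun gene. The uninjured group (4 arrays, labelled control) held ganglia without a nerve lesion, and the injured group (5 arrays, labelled lesion) held ganglia labelled as collected 3 days after the sciatic nerve was cut. The labels put that time on the control samples too, and the study's text elsewhere names a shorter time for ganglion profiling, so the time after injury is not certain. That part of the text names L4 ganglia alone, so the ganglion level is not certain either. Nothing in the labels tied an array to an animal or said whether ganglia were pooled or control ganglia came from the uncut side, so p-values measured only the spread between these arrays. Each array carried ganglion RNA in the Cy5 channel and a commercial universal mouse reference RNA in the Cy3 channel, with no dye swap, and every level given is the log2 ratio of Cy5 over Cy3, in which 1 unit is a 2-fold difference.

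Cells that divide first express G1 cyclins, which free E2F transcription factors from the retinoblastoma proteins. E2F then switches on the genes for licensing origins, loading the MCM helicase, supplying nucleotides and running the replication fork, and a later wave, held down in resting cells by the DREAM complex and switched on by B-MYB and FOXM1, brings the mitotic kinases, the spindle checkpoint and the proteins of chromosome segregation. Sensory neurons of an adult ganglion have left the cycle for good, while satellite glia, Schwann cells, macrophages and other cells of the ganglion and its sheath can divide, and in bulk RNA more dividing cells and more of these transcripts per cell cannot be told apart.

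On the arrays 71.0% to 78.9% of spots were well above background in Cy5, and none was saturated. Injured array 5 had the lowest share and the lowest median Cy5 signal, 156 beside 194 to 238 on the other arrays. The tissue label held, since the neuronal genes Calca and Nefl stood at mean log2 ratios of 9.31 and 10.02 on the uninjured arrays. Injured array 2 stood apart in its local background, where 20 spots were flagged as non-uniform and the lowest Cy5 signal less background was -9047. Flagged spots were left out unless stated otherwise. The arrays lay on 3 slides, of which 1 held uninjured arrays 2, 3 and 4, another held uninjured array 1 with injured arrays 1, 2 and 5, and the last held injured arrays 3 and 4, so only the middle slide held both groups.

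Of the 39 genes tested, 9 rose after injury and 1 fell (limma, adjusted p under 0.05 over all genes tested). Over the whole array 25.4% of genes passed the same test, 11.4% as higher and 14.0% as lower. The 9 that rose were Prc1, Cdt1, Mcm6, Mcm7, Tyms, Birc5, Ccne2, Mcm3 and Pcna, and the gene that fell was Tk1. With these 9 included, 33 of the 39 had a log2 fold change above 0, and the median over the 39 was 0.23, beside 0.00 over all genes tested and 10504 of 20895 genes above 0. The values of every injured array lay above those of every uninjured array for 10 of the 39 genes and below them for 1, where 10.8% and 13.1% of all genes did so. Only Prc1, Cdt1 and Mcm6 passed the test with a change over 1.5-fold, where 1241 of all 20895 genes did so in either direction.

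**Figure D1:**
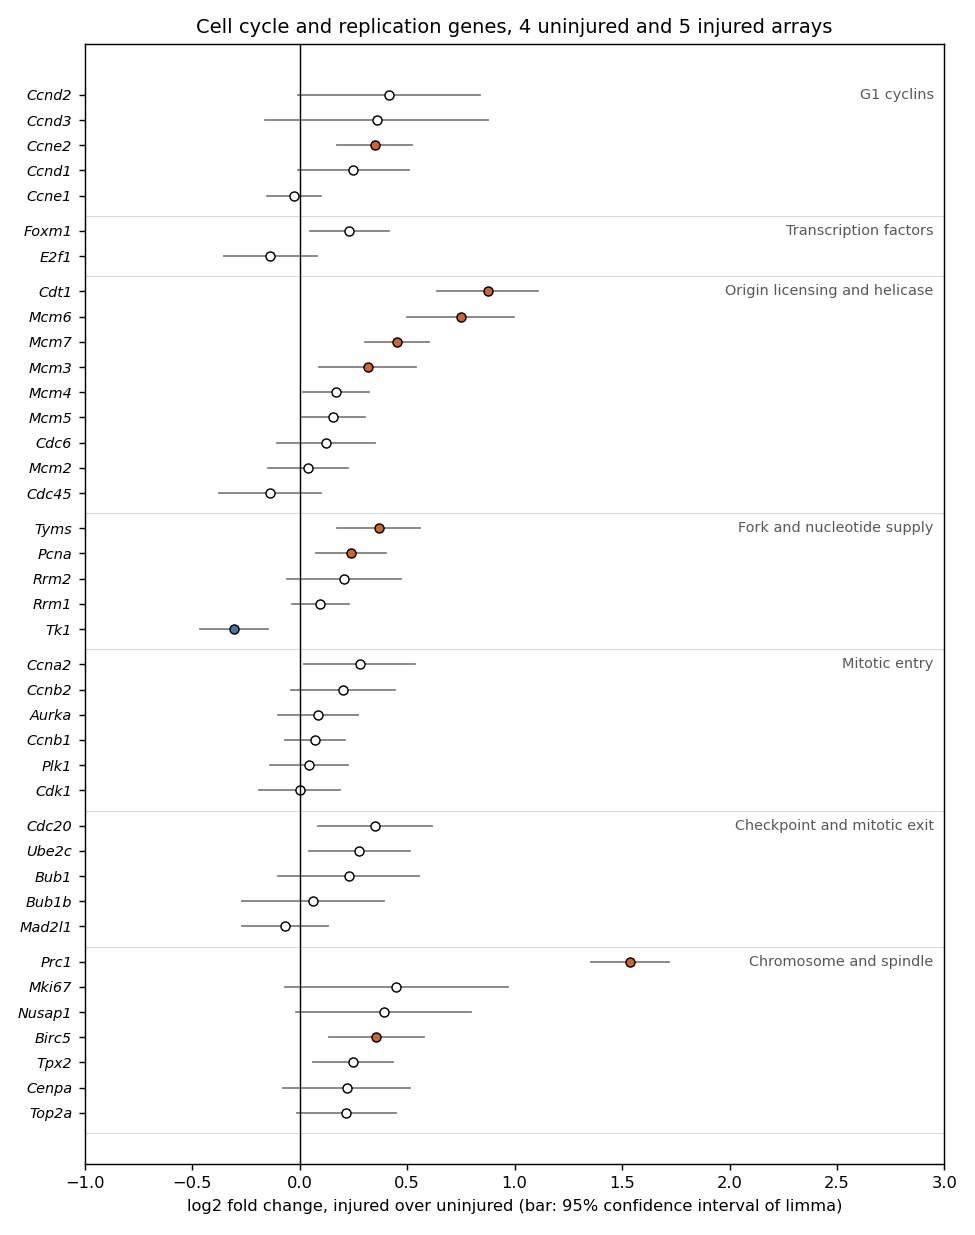
Log2 fold change of each of the 39 tested genes (x axis, injured over uninjured, 4 and 5 arrays), grouped by role, with the 95% confidence interval of limma as a bar. Filled points passed the test. Prc1 lies alone at 1.54, followed by Cdt1 at 0.88 and Mcm6 at 0.75, and Tk1 is the filled point below 0.

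Prc1, which encodes the protein that bundles antiparallel microtubules of the central spindle during cell division, changed most. Its log2 ratio was -3.64, -3.62, -3.62 and -3.77 on uninjured arrays 1 to 4. On injured arrays 1 to 5 it was -2.16, -1.91, -2.23, -2.04 and -2.29. The 2 groups did not overlap, and the gap between them was wide beside the spread within either (SD 0.07 and 0.15). The rise was 2.90-fold, or 1.54 on the log2 scale (SE 0.08, adjusted p = 7.4e-07), with a two-sided exact permutation p of 0.00794, the smallest that 126 splits of 9 arrays into 4 and 5 can give. The probe is the array's only one for Prc1 and lies on the plus strand of chromosome 7 at 76185003 to 76185055 of the mm7 build. Within the slide that held both groups the rise was 1.52 (adjusted p = 0.00168 for the fit in which slide is a fixed block).

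The next largest changes were those of Cdt1, Mcm6 and Mcm7, genes that license origins or form the replicative helicase. Of 9 genes of this role tested, 4 rose (44.4%, beside 11.4% of all genes). The median of the 9 was 0.17, below the 0.23 of all 39 genes. Cdt1 encodes the factor that loads the MCM complex onto origins, and its log2 ratio was -5.24, -5.29, -5.13 and -5.14 on uninjured arrays 1 to 4. It was -4.45, -3.99, -4.57, -4.35 and -4.26 on injured arrays 1 to 5. No injured array reached down to the uninjured range, and the rise was 1.84-fold (log2 0.88, SE 0.11, adjusted p = 2.1e-04). Cdt1 also rose in the fit with slide as a block, by 1.01 (adjusted p = 0.0166).

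Mcm6 and Mcm7 encode subunits of the ring-shaped MCM2-7 helicase. Mcm6 was at -3.69, -3.95, -3.68 and -3.87 without injury and at -3.24, -2.80, -3.31, -3.00 and -2.91 after it. Mcm7 was at -4.06, -4.12, -4.08 and -4.18 without injury and at -3.70, -3.54, -3.82, -3.60 and -3.62 after it. Neither gene overlapped between the groups, and both were lowest among the injured arrays on array 3. The rise was 1.68-fold for Mcm6 (log2 0.75, SE 0.11, adjusted p = 8.1e-04) and 1.37-fold for Mcm7 (log2 0.45, SE 0.07, adjusted p = 7.6e-04). In the fit with slide as a block the sizes were alike, at 0.71 and 0.44, and neither passed the test (adjusted p = 0.0805 and 0.0819). Mcm7 also missed the test when arrays were centred on their median in place of loess (log2 0.37).

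The ring's other subunits lay lower, although all 6 work in 1 complex. Mcm3 was at -4.16, -4.26, -4.19 and -4.01 on the uninjured arrays and at -4.01, -3.66, -4.08, -3.81 and -3.63 on the injured ones. Injured array 3 lay inside the uninjured range, and the rise of 0.32 (SE 0.10, adjusted p = 0.0447) was lost in 15 of 24 other settings. Mcm4 had a log2 fold change of 0.17 (adjusted p = 0.0993), Mcm5 of 0.16 (adjusted p = 0.113) and Mcm2 of 0.04 (95% confidence interval -0.15 to 0.23). Cdc6, which works with Cdt1 in loading the ring, had 0.12 (adjusted p = 0.434), and Cdc45, which joins the ring when the origin fires, had -0.14 (adjusted p = 0.387).

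The promoters of the 4 genes that changed most are shown with that of Cdk1, which did not pass the test, because E2F, CHR and CCAAT elements are the sites through which cell cycle genes are commonly controlled. Each window runs from 250 bases before to 50 bases after a start site in RefSeq (GRCm38.p6), 5′ to 3′ on the gene's own strand. Capitals mark every match, on either strand, to the CCAAT box (CCAAT), the CHR element (TTTGAA or TTCGAA), the E2F site (TTTCCCGC, TTTGGCGC, TTTCGCGC or TTTGCCGC) and the AP-1 site (TGANTCA). Prc1 and Mcm7 each have a further listed start that is not printed.
Prc1, chr7:80294201-80294500, plus strand: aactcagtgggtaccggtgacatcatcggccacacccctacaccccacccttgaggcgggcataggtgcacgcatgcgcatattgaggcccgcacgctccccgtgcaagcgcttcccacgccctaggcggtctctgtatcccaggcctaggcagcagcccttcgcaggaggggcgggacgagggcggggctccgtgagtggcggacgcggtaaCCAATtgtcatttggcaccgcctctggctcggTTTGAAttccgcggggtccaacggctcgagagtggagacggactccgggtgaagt
Cdt1, chr8:122567765-122568064, plus strand: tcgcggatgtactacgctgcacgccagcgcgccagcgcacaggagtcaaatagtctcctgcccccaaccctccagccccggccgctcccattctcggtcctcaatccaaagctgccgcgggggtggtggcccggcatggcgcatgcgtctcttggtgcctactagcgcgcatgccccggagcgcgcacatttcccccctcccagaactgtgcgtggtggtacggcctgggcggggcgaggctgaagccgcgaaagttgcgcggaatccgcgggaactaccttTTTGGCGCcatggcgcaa
Mcm6, chr1:128359656-128359955, minus strand: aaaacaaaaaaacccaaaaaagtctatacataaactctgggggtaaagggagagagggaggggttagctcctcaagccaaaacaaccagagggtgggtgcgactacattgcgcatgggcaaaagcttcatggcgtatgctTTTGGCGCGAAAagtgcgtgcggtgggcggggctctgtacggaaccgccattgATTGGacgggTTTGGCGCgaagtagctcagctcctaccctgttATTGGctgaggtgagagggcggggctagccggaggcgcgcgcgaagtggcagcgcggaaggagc
Mcm7, chr5:138171834-138172133, minus strand: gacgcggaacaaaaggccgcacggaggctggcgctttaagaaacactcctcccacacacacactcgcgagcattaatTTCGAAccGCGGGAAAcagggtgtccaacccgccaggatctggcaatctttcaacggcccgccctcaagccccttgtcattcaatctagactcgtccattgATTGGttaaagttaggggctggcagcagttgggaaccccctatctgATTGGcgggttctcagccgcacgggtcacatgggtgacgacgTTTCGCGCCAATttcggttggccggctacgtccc
Cdk1, chr10:69352863-69353162, minus strand: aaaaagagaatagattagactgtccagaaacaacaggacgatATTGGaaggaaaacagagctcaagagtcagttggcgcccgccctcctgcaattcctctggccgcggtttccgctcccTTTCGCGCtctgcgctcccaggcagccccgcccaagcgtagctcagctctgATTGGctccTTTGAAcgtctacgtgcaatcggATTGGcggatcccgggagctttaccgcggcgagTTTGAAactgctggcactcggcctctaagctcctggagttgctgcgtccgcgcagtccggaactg

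In the printed windows Prc1 held a CCAAT box at position -37 and a CHR element at position -5 from its start, and no E2F match. Cdt1 held an E2F match alone, at position 32 after its start. Mcm6 held 3 E2F matches, of which 2 overlap on opposite strands, and Mcm7 held 2, of which 1 runs into a CCAAT box. The printed windows of Mcm7 and Cdk1 held E2F, CHR and CCAAT matches, while the Mcm7 window that is not printed held 1 CCAAT box and no E2F or CHR match. Windows were given for 32 of the 40 genes (35 windows), and of these 25 held a CCAAT box, 16 a CHR element, 7 an E2F match and 0 an AP-1 match. Over all 32851 windows of the same length the shares with a match were 37.4%, 19.2%, 2.3% and 7.8%. A match is a run of letters and was not measured as a bound site.

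**Figure D2:**
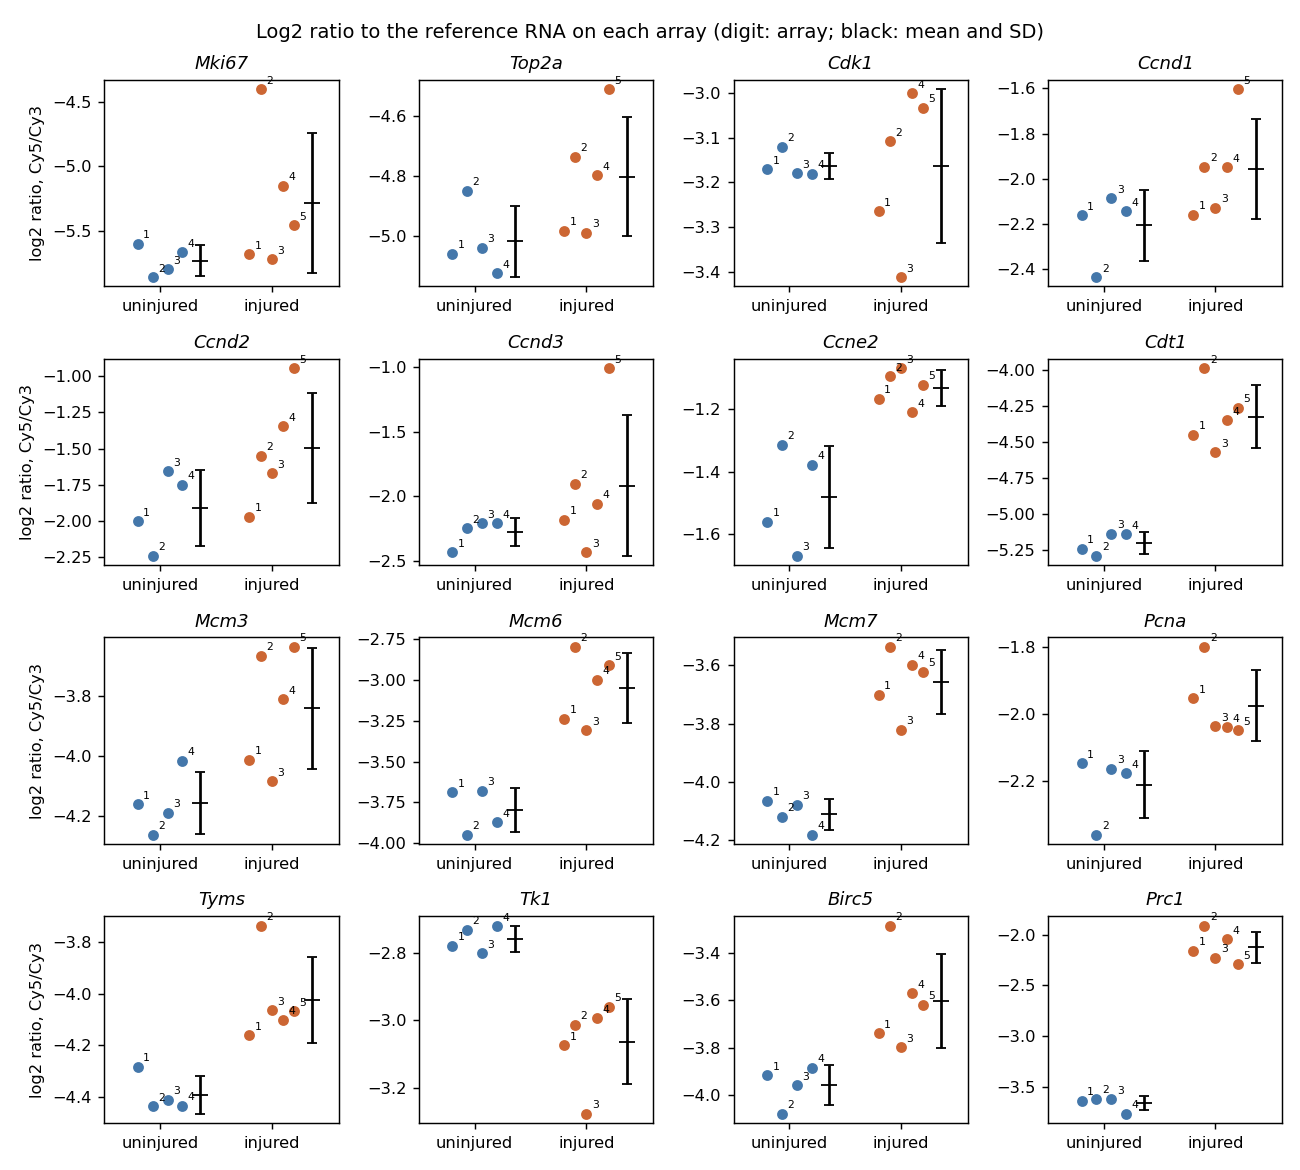
Log2 ratio of Cy5 over Cy3 (y axis, own scale in each panel) of 16 genes on 4 uninjured (blue) and 5 injured (orange) arrays, with the array number beside each point and the mean and SD in black. Prc1, Cdt1, Mcm6 and Mcm7 separate fully, while Cdk1 is centred on -3.16 in both groups and Mki67 and Ccnd3 are spread by single injured arrays.

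Of the 5 genes of the replication fork and nucleotide supply, 2 rose and 1 fell, beside 11.4% and 14.0% of all genes. Pcna, the sliding clamp of the fork polymerases, was at -2.15, -2.36, -2.16 and -2.18 on the uninjured arrays and at -1.95, -1.80, -2.04, -2.04 and -2.05 on the injured ones. Tyms, thymidylate synthase, which makes dTMP from dUMP, was at -4.28, -4.44, -4.41 and -4.44 without injury and at -4.16, -3.73, -4.06, -4.10 and -4.07 after it. Neither overlapped between the groups, and both were highest on injured array 2. Pcna rose by 0.24 (SE 0.07, adjusted p = 0.0365) and Tyms by 0.37 (SE 0.09, adjusted p = 0.0112). The call for Pcna was lost in 13 of 24 other settings and that for Tyms in 4. The dimmest of the 3 Tyms probes, above background on 8 of the 9 arrays, changed by 0.02, while the remaining one changed by 0.33.

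Tk1, thymidine kinase, which salvages thymidine into the same dTMP pool, moved the other way. It was at -2.78, -2.73, -2.80 and -2.72 on the uninjured arrays and at -3.07, -3.01, -3.28, -2.99 and -2.96 on the injured ones. All 5 injured arrays lay below all 4 uninjured arrays, and Tk1 fell by 0.31 on the log2 scale (SE 0.07, adjusted p = 0.00984). Of 24 other settings, the call was lost only with slide as a fixed block (log2 -0.24, adjusted p = 0.336). Rrm1 and Rrm2, the subunits of ribonucleotide reductase, had log2 fold changes of 0.10 and 0.21 (adjusted p = 0.273 and 0.242).

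Of the G1 cyclins, 1 of 5 rose (20%, beside 11.4% of all genes). Ccne2, a partner of CDK2 at the start of S phase, was at -1.56, -1.31, -1.67 and -1.38 without injury and at -1.17, -1.09, -1.07, -1.21 and -1.12 after it. The injured arrays were packed more tightly (SD 0.06) than the uninjured ones (SD 0.16) and all lay higher. The rise was 1.27-fold (log2 0.35, SE 0.08, adjusted p = 0.00831), and a dimmer Ccne2 probe changed by 0.22. Ccne2 was itself dim, with Cy5 signals of 71.6 to 154, and moved by 0.52 on injured array 2 with all spots kept. Over 24 other settings its change ran from 0.28 to 0.61, and the call was lost in 2. The related gene Ccne1 had -0.03 (95% confidence interval -0.15 to 0.10).

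The D cyclins, which pair with CDK4 and CDK6 and answer to growth signals, did not pass the test. Ccnd1 was at -2.16, -2.43, -2.08 and -2.14 on the uninjured arrays and at -2.16, -1.95, -2.13, -1.95 and -1.60 on the injured ones. Ccnd2 was at -2.003, -2.24, -1.65 and -1.75 without injury and at -1.97, -1.55, -1.67, -1.35 and -0.94 after it. Ccnd3 was at -2.43, -2.25, -2.21 and -2.21 without injury and at -2.18, -1.90, -2.43, -2.06 and -1.004 after it. All 3 were highest on injured array 5, and for each of them injured arrays 1 and 3 fell inside the uninjured range or at its edge. The log2 fold changes were 0.25 (adjusted p = 0.152), 0.42 (adjusted p = 0.143) and 0.36 (adjusted p = 0.303), with 95% confidence intervals that reached 0.51, 0.84 and 0.88. The 3 probes for Ccnd2 gave 0.36 to 0.42.

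Neither transcription factor passed the test. Foxm1, the activator of the mitotic genes, had a log2 fold change of 0.23 (adjusted p = 0.0635). Its groups did not overlap but nearly met, with injured arrays 1 and 3 at -2.79 and uninjured array 1 at -2.81. E2f1 had -0.14 (adjusted p = 0.345).

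The genes of mitotic entry and of the checkpoint and mitotic exit gave no call among 11 tested by limma, and 3 of the 11 had an unadjusted p under 0.05. Over all genes 11.4% were called higher and 14.0% lower, and 7668 of 20895 had an unadjusted p under 0.05 by limma. Cdk1, the kinase that starts mitosis, was at -3.17, -3.12, -3.18 and -3.18 on the uninjured arrays and at -3.26, -3.11, -3.41, -3.00 and -3.03 on the injured ones. The means were both -3.16, but the injured arrays were spread more widely (SD 0.17 against 0.03) to both sides of the uninjured ones, and the 95% confidence interval of the difference ran from -0.19 to 0.19. Its cyclin partners Ccna2, Ccnb1 and Ccnb2 had 0.28, 0.07 and 0.20, and the kinases Aurka and Plk1 had 0.08 and 0.04. Another Ccnb1 probe of the same brightness changed by 0.25. Of the checkpoint and exit genes, Cdc20 and Ube2c, which act with the anaphase-promoting complex, had 0.35 (adjusted p = 0.0561) and 0.28 (adjusted p = 0.0832), and the checkpoint genes Bub1, Bub1b and Mad2l1 had 0.23, 0.06 and -0.07. Without uninjured array 3 the value for Bub1 was 0.071.

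Of the genes of chromosomes and the spindle, 2 of 7 tested rose (28.6%, beside 11.4% of all genes), Prc1 and Birc5. Birc5, survivin of the chromosomal passenger complex, was at -3.92, -4.08, -3.96 and -3.88 without injury and at -3.74, -3.29, -3.80, -3.57 and -3.62 after it. The groups did not overlap, and the rise of 0.36 (SE 0.10, adjusted p = 0.0239) was lost in 7 of 24 other settings. Mki67, the common marker of cycling cells, was at -5.60, -5.86, -5.80 and -5.67 on the uninjured arrays and at -5.68, -4.40, -5.72, -5.15 and -5.46 on the injured ones. Injured arrays 1 and 3 lay inside the uninjured range and array 2 far above it, so the mean difference of 0.45 came with a 95% confidence interval of -0.07 to 0.97 (adjusted p = 0.195), and a second probe gave 0.36. Top2a, the topoisomerase that untangles sister chromatids, was at -5.06, -4.85, -5.04 and -5.13 without injury and at -4.98, -4.73, -4.99, -4.80 and -4.51 after it. The groups overlapped, with a log2 fold change of 0.22 (adjusted p = 0.162). Nusap1, Tpx2 and Cenpa, proteins of the spindle and the centromere, had 0.39, 0.25 and 0.22, none of them called. Without injured array 2 Nusap1 was at 0.21, and without injured array 5 Cenpa was at 0.13.

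Aurkb, the kinase of the passenger complex, was the gene not tested. Its probe was well above background on 0 of 4 uninjured and 1 of 5 injured arrays. With most arrays at background in both groups, no fold change is given.

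The injured arrays differed in how far the set moved. The mean over the 39 genes, as a difference from the uninjured mean, was 0.12, 0.42, 0.08, 0.27 and 0.37 on injured arrays 1 to 5, where the 4 uninjured arrays lay between -0.03 and 0.03. Injured array 2 was the highest of the injured arrays for 18 of the 39 genes and array 5 for 16, while array 3 was the lowest for 22 and array 1 for 11. The order of the injured arrays was the same in 5 of the 7 roles, with the highest mean, 0.83, for the chromosome and spindle genes on array 2. The G1 cyclins and the transcription factors were highest on array 5 instead, at 0.65 and 0.27.

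Markers of other cells also differed between the injured arrays, not all in the same order, and their part in the result was not tested. The mean over 10 macrophage genes was 0.10, 1.15, 0.39, 0.50 and 0.99 on injured arrays 1 to 5, with -0.41 to 0.31 on the uninjured arrays. Of the 10, 3 rose (30%, beside 11.4% of all genes). The 3 genes of red blood cells measured were at 1.19 and 1.22 on injured arrays 2 and 5 and at -0.15 to 0.49 on the other injured arrays, and 0 of 3 passed the test by limma. These 3 genes were also higher after injury in the Cy3 channel, by a median of 0.77, each with an unadjusted p under 0.05 by limma. In that channel 2006 of all 20895 genes had such a p. In the Cy5 channel alone their median change was 1.33, beside 0.50 in the ratio. The 5 muscle genes were at 1.81 and 3.31 on injured arrays 2 and 4 and at -0.11 to 0.31 on the others, and 0 of 5 passed. The 5 fibroblast genes were at -0.040, 0.49, 0.083, 0.24 and 0.76 on injured arrays 1 to 5 and at -0.55 to 0.49 on the uninjured ones, and 0 of 5 passed. The 5 endothelial genes were at 0.013, 0.29, -0.051, 0.22 and 0.45 on injured arrays 1 to 5 and at -0.30 to 0.14 on the uninjured ones, and Tek, the angiopoietin receptor, rose by 0.47 (adjusted p = 0.0253). The 6 satellite glia genes were at -0.012 to 0.37 on the injured arrays, highest on array 5, and at -0.13 to 0.12 on the uninjured ones. Of them Glul, glutamine synthetase, rose by 0.78 (adjusted p = 1.3e-04), also with slide as a fixed block (log2 0.71, adjusted p = 0.0397). The 6 myelinating Schwann cell genes were at 0.027, 0.41, 0.21, 0.59 and -0.13 on injured arrays 1 to 5. On the uninjured arrays they were at -0.46 to 0.33. None of these 6 genes and of 4 T cell genes passed the test by limma. Of the lists with no call, an unadjusted p under 0.05 was found for 2 red blood cell genes, 1 muscle gene, 2 Schwann cell genes and 0 of the fibroblast and T cell genes. Among 10 neuronal genes only Isl1 passed the test, and it fell by 0.51. By limma 3 of the 10 had an unadjusted p under 0.05, Isl1 with Snap25 (log2 -0.27, adjusted p = 0.0843) and Scn10a (log2 -0.24, adjusted p = 0.104). These counts and those of the lists with no call stand beside 7668 of all 20895 genes with an unadjusted p under 0.05 by limma. With injured arrays 2 and 5 left out, a choice made after seeing the data, 6 of the 39 genes rose and the median was 0.13. These arrays had the highest means over the 39 genes, so the choice itself lowers the median. With arrays 2 and 4 left out, also chosen after seeing the data, 6 rose and the median was 0.15. Of all genes 8.94% and 6.56% were called higher in these 2 fits. Prc1, Cdt1, Mcm6, Mcm7, Tyms and Ccne2 were the 6 genes in both cases, and Tk1 fell in both.

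**Figure D3:**
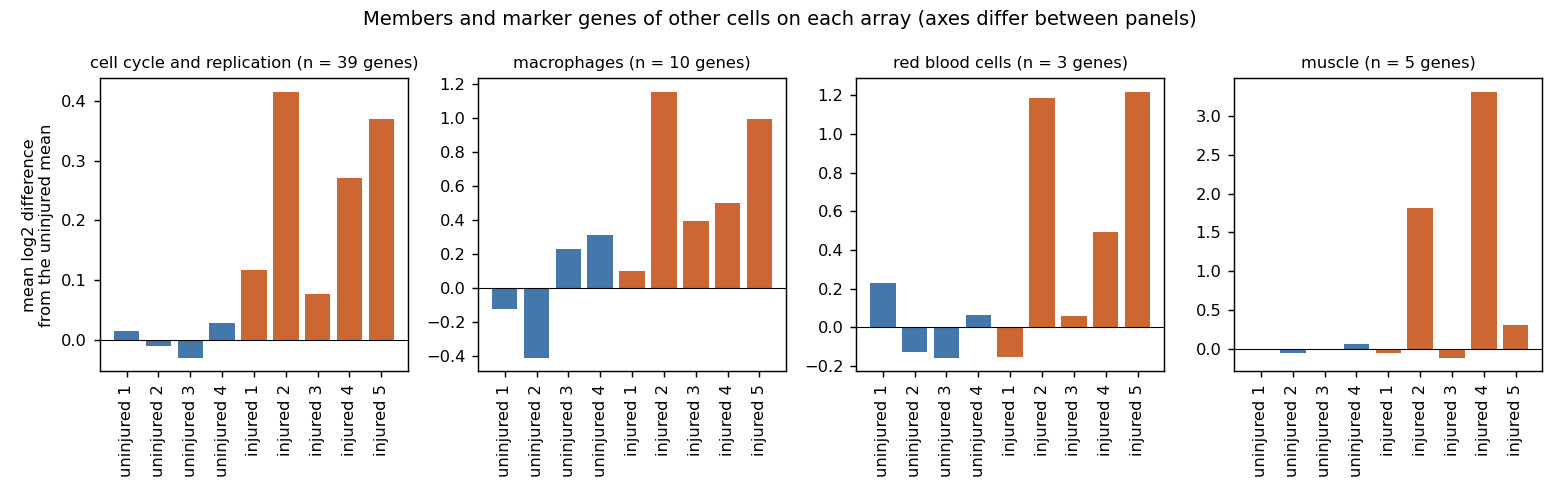
Mean log2 difference from the uninjured mean (y axis, own scale in each panel) of the 39 genes and of macrophage, red blood cell and muscle genes, on 4 uninjured (blue) and 5 injured (orange) arrays. Injured arrays 2 and 5 are highest for the 39 genes and for macrophage and red blood cell genes, and injured arrays 2 and 4 for muscle genes.

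The flagged spots of injured array 2 changed the dim genes. With all spots kept, the background fit of that array moved from -15.5 to -358, and the mean over the 39 genes rose from 0.42 to 0.73 there while the other arrays stayed the same to the second decimal. Bub1, with a Cy5 signal of at most 75.6 on any array, moved by 1.55 on injured array 2, Cenpa by 1.27, Ccnb1 by 1.24, Cdc45 by 1.21 and Top2a by 1.20. The 4 brightest genes, Pcna, Mcm6, Mcm4 and Ccne1, moved the other way by -0.12, -0.10, -0.05 and -0.07, while Tk1 moved by 0.11, Prc1 by -0.01 and Birc5 by 0.01. With all spots kept 8 genes rose and 1 fell (8.99% of all genes were called higher), Mcm3 was no longer among them, and the median was 0.31. Cdc45 turned from -0.14 to 0.10, with no call either way. None of the 39 probes was itself at a spot with a flagged background, and 6 spots flagged for other reasons belonged to Ccnd1 and Pcna, whose probes have 10 spots on each array, so every gene kept a value on all 9 arrays.

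**Figure D4:**
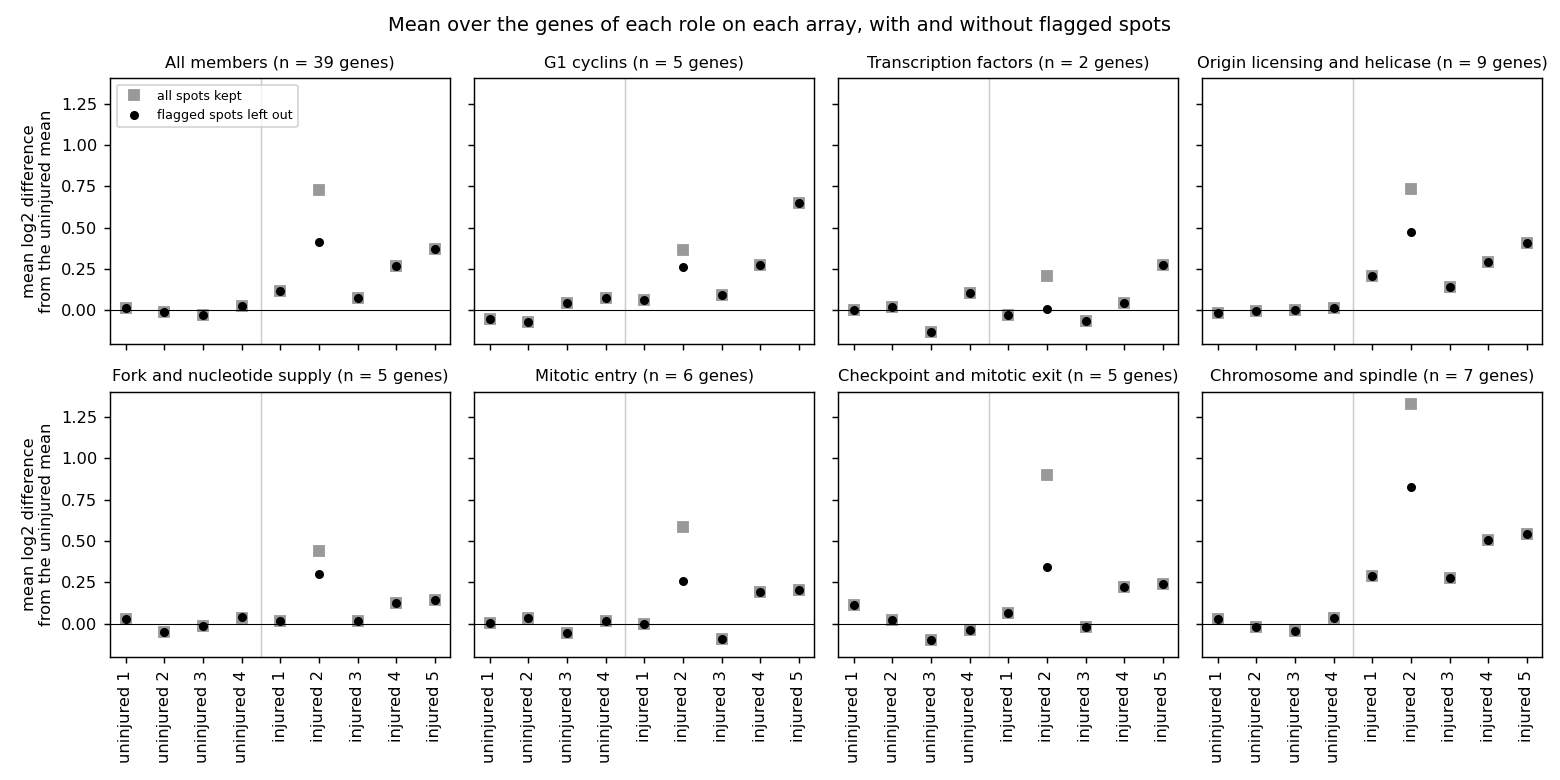
Mean log2 difference from the uninjured mean (y axis) over the genes of each role on each of 9 arrays (x axis), with flagged spots left out (black) and with all spots kept (grey). The 2 ways part only on injured array 2, where the mean over all 39 genes is 0.42 and 0.73.

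The calls depended on how slide was treated. With slide as a fixed block, which rests on uninjured array 1 against injured arrays 1, 2 and 5, the median over the 39 genes was 0.25 and only Prc1 and Cdt1 passed, where 3.01% of all genes were called higher. The other 8 genes called over all 9 arrays kept their sign with adjusted p of 0.0805 to 0.401. The sizes of genes not called moved as well, Ccnd3 from 0.36 to 0.74, Cdc6 from 0.12 to 0.28, Bub1 from 0.23 to 0.09 and Foxm1 from 0.23 to 0.14. With slide as a random block, which uses all 9 arrays, 16 genes rose and 1 fell, beside 16.7% of all genes called higher. Because the fixed block rests on 1 uninjured array, fewer calls there cannot be told apart from fewer arrays. Centring on the median in place of loess left 3 genes higher, Prc1, Cdt1 and Mcm6, and Tk1 lower, beside 4.69% of all genes called higher. In the Cy3 channel, which held the same reference RNA on every array, 0.158% of genes were called by limma and 0 of the 39 genes were. There 0 of the 39 had an unadjusted p under 0.05 by limma, beside 2006 of all 20895 genes.

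**Figure D5:**
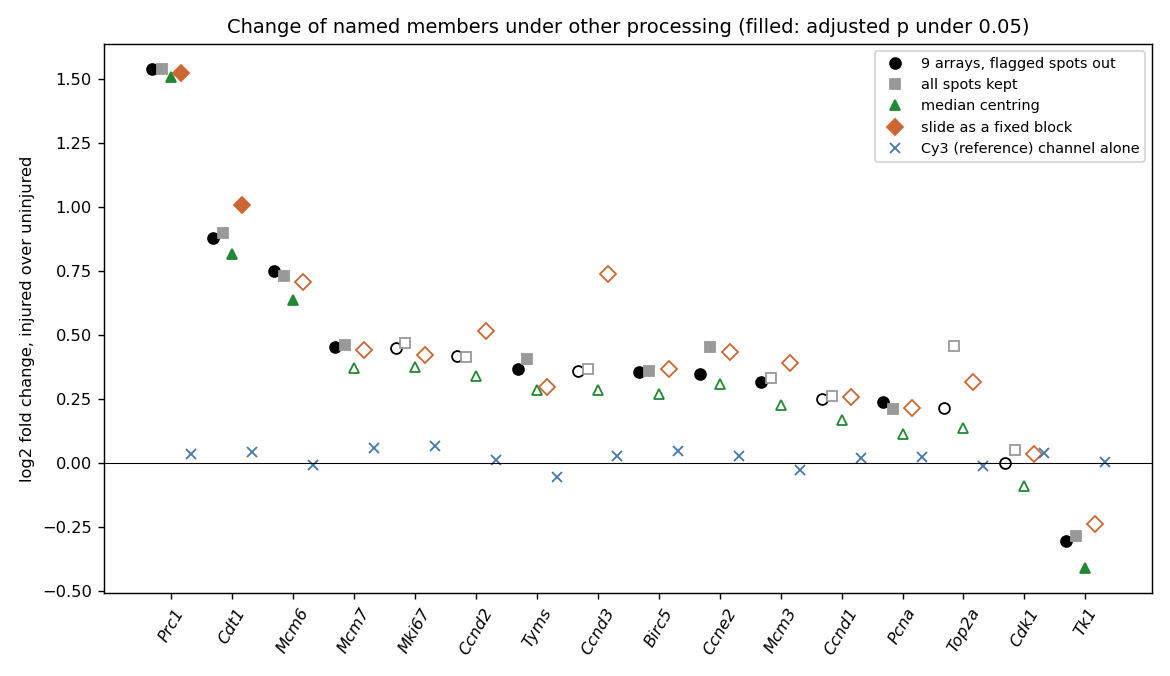
Log2 fold change (y axis) of 16 genes (x axis) with all 9 arrays and flagged spots left out, with all spots kept, with median centring, with slide as a fixed block, and in the Cy3 channel alone, where filled symbols of the first 4 passed the test. Prc1 stays near 1.54 in all but the Cy3 channel, where all genes lie near 0, and Top2a moves from 0.22 to 0.46 with all spots kept.

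The cell cycle genes outside the set gave calls in both directions, at shares close to those of all genes. Of 91 further genes listed by function, 87 were tested, 13 rose (14.9%) and 14 fell (16.1%), beside 11.4% and 14.0% of all genes, with a median log2 fold change of 0.04. The largest change was that of Cdkn1a, the p53 target that encodes the CDK inhibitor p21. It was at -0.73, -1.20, -1.11 and -0.94 on the uninjured arrays and at 0.84, 0.66, 0.66, 1.02 and 0.95 on the injured ones. All injured arrays lay more than 1 unit above all uninjured ones, a rise of 3.53-fold (log2 1.82, SE 0.11, adjusted p = 1.8e-06), and it held with slide as a fixed block (log2 1.54, adjusted p = 0.00246). The other CDK inhibitors did not pass the test, with log2 fold changes of -0.26 for Cdkn1b, 0.18 for Cdkn1c, 0.17 for Cdkn2a, 0.12 for Cdkn2b, 0.04 for Cdkn2c and -0.01 for Cdkn2d.

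After Cdkn1a the largest rises were those of Ncapg, a condensin subunit, at 0.61 (adjusted p = 0.0116), Cdk6, the kinase partner of the D cyclins, at 0.37 (adjusted p = 0.00406), and Mcm10, an origin-firing factor, at 0.36 (adjusted p = 0.0176). Kif4, a motor that works with PRC1 at the central spindle, rose by 0.33 (adjusted p = 0.0357) and Mybl2, which encodes B-MYB, by 0.30 (adjusted p = 0.0189). The call for Kif4 was lost in 15 of 24 other settings, that for Mybl2 in 6 and that for Mcm10 in 5. Of 11 genes listed as retinoblastoma (pocket) proteins and E2F factors 1 rose (9.09%) and 3 fell (27.3%). Of 29 other replication genes 4 rose (13.8%) and 8 fell (27.6%), with a median of -0.10. Both lists stand beside 11.4% of all genes called higher and 14.0% called lower. Over all the further genes the largest falls were those of Rpa1, which coats single-stranded DNA, by 0.39 (adjusted p = 0.00386), and Dut, which breaks down dUTP, by 0.38 (adjusted p = 6.8e-04). The repressor E2f6 fell by 0.36 (adjusted p = 6.4e-04) and the clamp loader subunit Rfc1 by 0.32 (adjusted p = 0.00441). In the fit with slide as a block none of these 9 genes passed the test (adjusted p = 0.0855 to 0.387).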

How the data were processed

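Agilent 2-colour mouse whole-genome arrays measured 9 DRG samples. The authors deposited each array's scanner output from Feature Extraction 10.5.1.1, with mean and background intensity per spot and a log10 ratio, and a value table whose log2 ratios have medians of 0.0202 to 0.0240 per array and slopes of 1.00 to 1.01 against the values used here. The labels name limma, and the direction is that of the labelled dyes. The intensities were corrected with normexp (offset 50), normalized by loess within arrays, with flagged spots left out, and averaged per probe. Of the probes whose Cy5 signal was well above background on 4 or more arrays, the brightest of each gene was kept and fitted with limma 3.58.1 in R 4.3.3 with no covariate and Benjamini-Hochberg adjustment over 20895 genes. Script steps were tested on simulated data. Exact permutation tests covered single genes. Genes were named through RefSeq where an accession, symbol or older name matched (16498 of 20895). The members and lists were chosen with earlier results of these data known. Values in every array are given for the called genes, for 7 genes fixed with the list and for the 2 largest changes not called. From the further lists the 6 largest rises, 4 largest falls and all CDK inhibitors are named. Alternatives are given at the end, and the number of arrays limits the precision.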

Additional observations from a re-analysis of the deposited data

Results flagged for a closer look

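In 8 of 100 groups of arrays checked (39 genes and 11 lists in 2 groups each), 1 array lay far from the others, where chance gives about 1 in 20. Of the uninjured arrays, array 2 was the outlying one for Cdc45 (-2.40, the nearest other array at -2.82), Cdk1 (-3.12 against -3.17) and Pcna (-2.36 against -2.18). Uninjured array 4 was low for Prc1 (-3.77 against -3.64) and uninjured array 1 high for Tyms (-4.28 against -4.41). Of the injured arrays, array 2 was high for Tyms (-3.73 against -4.06), array 3 low for Bub1b (-3.83 against -3.29) and array 5 high for E2f1 (-0.24 against -0.55). The gaps for Cdk1 and Prc1 are small in size and stand out beside very narrow groups.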

How the results depend on the processing

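No paired analysis was possible because no label numbers the arrays or joins an uninjured one to an injured one. Leaving out each array in turn gave 4024 to 5444 genes called in either direction, with 8.89% to 11.8% of all genes higher. Of the 39 genes 6 to 12 were higher and 1 lower, with a median of 0.17 to 0.26. Median centring gave 2660 genes called (4.69% of all genes higher) and 3 of the 39 higher. Slide as a fixed block gave 1180 genes called, 2 of the 39 higher and 0 lower. Slide as a random block gave 7409 genes called (16.7% of all genes higher) and 16 of the 39 higher. The Cy5 channel alone gave 4807 genes called (9.69% of all genes higher), 6 of the 39 higher and 1 lower, and a median of 0.14. Mcm3, Pcna and Tyms lost the call there. A change over 1.5-fold beside the adjusted p left 1241 of 20895 genes in either direction, 3 of the 39 higher and 0 lower. Leaving out injured arrays 2 and 4, chosen after seeing the data, as was leaving out arrays 2 and 5, gave 3012 genes called. The causes were not tested. Of 1320 log2 fold changes recomputed (55 genes in 24 settings), 1190 kept their direction and side of the threshold, 80 lost the call, 17 gained one and 33 changed sign, none of the last with a call. With all spots kept, Cdk1 was 0.051, Cdc45 0.10 and Mad2l1 0.011. With median centring, Mcm2 was -0.047, Bub1b -0.021, Aurka -0.016, Plk1 -0.043 and Cdkn2c -0.051. With the Cy5 channel alone, Ccnb1 was -0.00015, Ccne1 0.024 and Cdc6 -0.0048. With slide fixed, Cdk1 was 0.036, Bub1b -0.16 and E2f1 0.025. With slide random, Cdk1 was 0.00083. Without injured arrays 2 and 4, Mcm2 was -0.0062, Bub1b -0.027 and Plk1 -0.0012. Without injured arrays 2 and 5, Cdc6 was -0.013, Mcm2 -0.066, Plk1 -0.043, Cdkn1c -0.19 and Cdkn2c -0.056. Over the fits that leave out 1 array, Cdk1 ran from -0.042 to 0.062, Bub1b from -0.034 to 0.17, Cdkn2d from -0.027 to 0.026, Mcm2 from -0.020 to 0.073, Cdkn2c from -0.0021 to 0.086, Mad2l1 from -0.12 to 0.0032 and Cdkn1c from -0.022 to 0.35. Prc1 and Cdt1 kept their calls in all 24 settings, at 1.44 to 1.63 and 0.74 to 1.01. Top2a, Ccnb1, Cdc45, Bub1 and Cenpa had Cy5 signals of at most 127.9 over background, which limits their precision.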
